A study of Homo sapiens with 10 samples.

Results

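The 10 genes described here take uridine into the cell, turn it into nucleotides or build pyrimidine nucleotides from small precursors. They were SLC29A1, UCK1, UCK2, UCKL1, CMPK1, CAD, DHODH, UMPS, CTPS1 and CTPS2, chosen by gene name, with earlier results of these data known. All 10 were present among the 24994 features of the deposited tables, each as 1 transcript, and all 10 passed the filter on low counts that left 13731 features for testing.

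Cells take up uridine and its analogues such as 4-thiouridine (4SU) through nucleoside transporters, and uridine kinases add the first phosphate, which traps the nucleoside in the cell. This salvage route meets de novo synthesis at UMP, which the enzymes encoded by CAD, DHODH and UMPS make from glutamine, bicarbonate, aspartate and phosphoribosyl pyrophosphate. UMP then becomes UDP and UTP, and CTP synthases convert UTP to CTP. A labelled uridine therefore has to pass nucleoside transporters and the uridine kinases before an RNA polymerase can build it into RNA.

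Polyadenylated RNA was sequenced from HEK293, a human embryonic kidney cell line grown in medium with 10% fetal calf serum, in 10 libraries. Libraries A and B were made for each of 4 groups, namely 4SU followed by ultraviolet crosslinking at 365 nm, 4SU alone, ultraviolet crosslinking at 254 nm with no 4SU, and untreated cells with neither. The 4SU groups received 1 mM 4SU for 12 to 14 h before harvest. The last pair, 1 library each, came from cells that received siRNA to the RNA-binding protein HuR (gene ELAVL1) or to GFP, without 4SU or crosslinking. The labels used here give no siRNA dose or time. The study's title names methods that crosslink RNA to its binding proteins, and these libraries give the mRNA levels under their conditions. All results are from 1 cell line. Whether libraries A and B are separate cultures is not stated, and p-values then cover the spread between libraries only, which may be technical.

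The 8 libraries of the 4 groups held 2238569 to 3099769 tags (sequenced reads assigned to transcripts), and the HuR siRNA and GFP siRNA libraries held 9016803 and 8688262. Crosslinked libraries stood apart in transcript length. Weighted by tags, the median transcript length in nucleotides (nt) was 1147 and 1431 for 4SU with 365 nm, 2373 and 2850 for 4SU alone, 1534 and 1305 for 254 nm, and 2666 and 3029 for untreated cells. The 10 genes' transcripts were 1284 nt (UCK2) to 7108 nt (CAD) long, with a median of 2581 nt against 2753 nt over all tested features. Their summed share of a library's tags was 0.0127% and 0.0198% for 4SU with 365 nm, 0.0750% and 0.0901% for 4SU alone, 0.0722% and 0.0606% for 254 nm, and 0.108% and 0.111% for untreated cells. Levels below are counts per 1000000 tags after TMM scaling (CPM), which aims to line the libraries up on the bulk of their features, so that changes are relative to that scale. On it the median log2 fold change of all tested features was -0.50 for 365 nm over 4SU alone. It was -0.14 for 254 nm and -0.40 for 4SU with 365 nm over untreated cells, so 0 is not the typical change there. The HEK293 markers NEFL, EPCAM, IRS4 and KRT18 were at 14.5 CPM or more in all 8 libraries, VIM reached at most 16.7, NEFM at most 7.68, PAX2 at most 3.56 and KRT8 at most 2.23 CPM, and the leukocyte gene PTPRC at most 0.187 CPM.

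Among these genes, CTPS1 was lower in cells given 4SU alone. That call was not made with library totals in place of TMM scaling, or at an adjusted p of 0.01. The procedure of 4SU with 365 nm, called the whole procedure below, left CTPS1, UMPS and CAD at the lowest levels relative to untreated cells. CAD was no longer called there with a correction for transcript length (-0.25 on the log2 scale). After 254 nm without 4SU, mRNAs of the uridine kinases and of the late de novo enzymes DHODH and UMPS were higher and CMPK1 was lower. None of these 5 rises was called with library totals in place of TMM scaling (log2 -0.013 to 0.50). DESeq2 and RLE factors each called 5 of the 10 genes higher, and upper-quartile factors 4. Of all 13731 tested features, DESeq2 called 3312 higher after 254 nm, RLE factors 3593 and upper-quartile factors 3062. UCK2 turned with the length correction, and UCK2 and UCKL1 turned when GC content was corrected for as well. The transporter SLC29A1 was lower after either crosslinking procedure than in untreated cells, in calls that DESeq2 did not make. On the TMM scale CTPS1 fell and CTPS2 rose when 4SU cells were crosslinked at 365 nm. CTPS1 was at percentile 43.9 of all tested features there, near the middle, and its call was lost with the length correction. The CTPS2 value turned with library totals in place of TMM scaling.

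**Figure D1:**
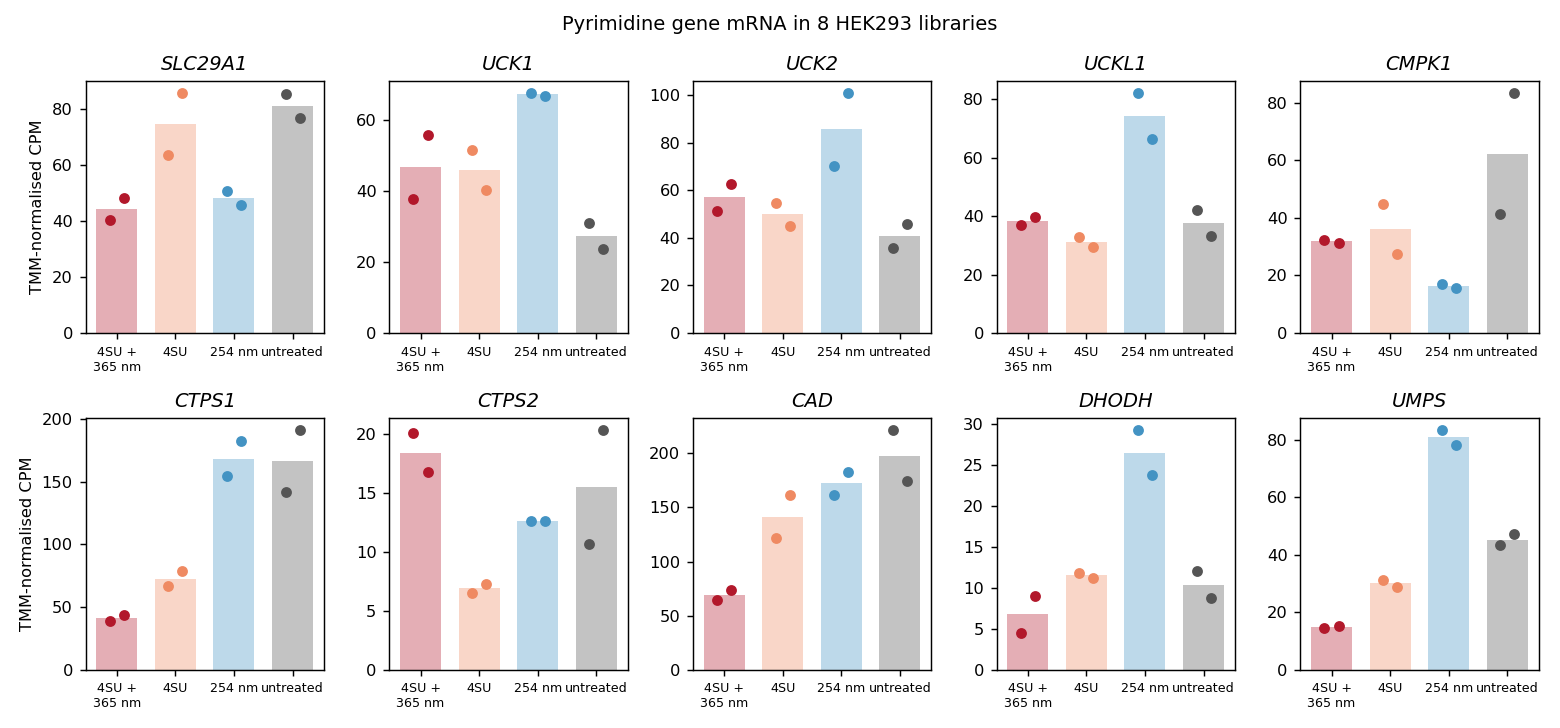
TMM-normalised CPM of each gene in the 8 libraries (points: libraries A and B; bars: their mean) for 4SU with 365 nm, 4SU alone, 254 nm and untreated cells. CTPS1 reaches at most 78.5 CPM in the 4 libraries with 4SU and at least 142 CPM in the 4 without it.

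SLC29A1 encodes ENT1, the equilibrative transporter that carries uridine across the plasma membrane. It had 40.2 and 48.2 CPM after 4SU with 365 nm, 63.6 and 85.6 CPM with 4SU alone, 50.6 and 45.6 CPM after 254 nm, and 85.1 and 76.7 CPM in untreated cells. The 4 crosslinked libraries were below the 4 libraries without crosslinking, and the 4SU-only and untreated libraries overlapped. SLC29A1 was lower by the whole 4SU and 365 nm procedure than in untreated cells (log2 fold change -0.87, standard error 0.34, adjusted p 0.0261) and lower after 254 nm (-0.75, 0.32, adjusted p 0.0482). Leaving out either 4SU with 365 nm library or 254 nm library A ended the first call (log2 -1.03 to -0.76 over 8 such fits, adjusted p up to 0.163). The second call held in 1 of the 8 fits, the one without untreated library B (log2 -0.83 to -0.68, adjusted p up to 0.220). DESeq2 called neither change (log2 -0.63, adjusted p 0.128, for the whole procedure, and -0.70, adjusted p 0.0778, for 254 nm). With the length trend removed the whole procedure had -0.65 (adjusted p 0.0765). For 4SU alone the log2 fold change over untreated cells was -0.12 with a standard error of 0.31 (adjusted p 0.872).

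UCK1 and UCK2 encode the uridine-cytidine kinases that phosphorylate uridine and cytidine to their monophosphates, and UCKL1 encodes a related uridine kinase-like protein. UCK1 had 37.9 and 55.8 CPM after 4SU with 365 nm, 51.8 and 40.5 CPM with 4SU alone, 67.7 and 67.0 CPM after 254 nm, and 31.1 and 23.8 CPM in untreated cells. UCK2 had 51.3 and 62.8 CPM after 4SU with 365 nm, 54.9 and 45.0 CPM with 4SU alone, 70.5 and 101 CPM after 254 nm, and 35.6 and 46.0 CPM in untreated cells. UCKL1 had 36.8 and 39.8 CPM after 4SU with 365 nm, 32.8 and 29.4 CPM with 4SU alone, 82.2 and 66.5 CPM after 254 nm, and 42.0 and 33.1 CPM in untreated cells. For each of the 3 kinases both 254 nm libraries were above the other 6.

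The 3 kinases rose after 254 nm over untreated cells. The log2 fold change was 1.29 for UCK1 (standard error 0.34, adjusted p 0.00133). It was 1.07 for UCK2 (0.33, adjusted p 0.00586) and 0.98 for UCKL1 (0.33, adjusted p 0.0103). Their transcripts, of 2191, 1284 and 1833 nt, are among the shorter members, and the 254 nm libraries held shorter transcripts in general. At those lengths the trend over all tested features in this comparison was 0.31, 1.19 and 0.64. After removal of the length trend UCK1 kept a call (0.99, adjusted p 0.0111), UCKL1 had 0.37 (adjusted p 0.318), and UCK2 turned to -0.10 (adjusted p 0.810). With length and GC trends removed UCK1 had 0.36 (adjusted p 0.316), UCKL1 -0.41 (adjusted p 0.223) and UCK2 -0.71 (adjusted p 0.0419). With library totals in place of TMM scaling no call was left, at 0.43 for UCK1 (adjusted p 0.369), 0.19 for UCK2 and 0.14 for UCKL1. In edgeR with TMM scaling, the UCK1 call held without any 1 library. The UCK2 call was lost without 254 nm library B (log2 0.79 to 1.36 over the 8 fits, adjusted p up to 0.129), and the UCKL1 call without 254 nm library A or untreated library B (0.82 to 1.16, adjusted p up to 0.0853).

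In edgeR with TMM scaling alone, none of the 3 kinases was called in a comparison with 4SU. The nearest was UCK1 after the whole procedure relative to untreated cells (log2 0.78, adjusted p 0.0503), which DESeq2 called (1.02, adjusted p 0.0175). The length-corrected fit called UCK1 higher in that comparison as well, and with library totals all 10 genes were called lower in it. UCK1 was higher with 4SU alone than in untreated cells in both libraries, at 0.74 on the log2 scale (adjusted p 0.173). UCK2 had 0.29 (adjusted p 0.652) and UCKL1 -0.27 (adjusted p 0.673) in the same comparison. When 4SU cells were crosslinked at 365 nm, the 3 values over 4SU alone were 0.04 for UCK1, 0.20 for UCK2 and 0.31 for UCKL1, with adjusted p from 0.451 to 0.917. At the length of UCK2 the trend over all features was 0.95 in that comparison. Per kilobase of transcript, UCK2 was the highest of the 10 genes in the 4SU with 365 nm, the 4SU-only and the 254 nm libraries, at 44.5 ± 6.3, 38.9 ± 5.5 and 66.8 ± 16.8 CPM per kilobase (SD, n = 2 each), although at 254 nm its range overlapped that of CTPS1. UCK2 was at rank 3 in untreated cells. It is the shortest of the 10 transcripts, and crosslinked libraries held shorter transcripts in general. The part of length in its rank was not tested.

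CMPK1 encodes the cytosolic UMP/CMP kinase, which makes UDP and CDP. It had 32.4 and 31.4 CPM after 4SU with 365 nm, 45.0 and 27.5 CPM with 4SU alone, 17.2 and 15.5 CPM after 254 nm, and 41.2 and 83.3 CPM in untreated cells. Both 254 nm libraries were the lowest of the 8, and the untreated libraries differed from each other by more than the libraries of any other group. CMPK1 fell after 254 nm by 1.92 on the log2 scale (standard error 0.38, adjusted p 5.69e-05), a call that held without any 1 library, with log2 values of -2.35 to -1.34. The value was -1.68 (adjusted p 0.000758) once the length trend was removed, and with length and GC trends removed it was -0.92 (adjusted p 0.0190). After the whole 4SU and 365 nm procedure it was lower than in untreated cells (log2 -0.96, standard error 0.38, adjusted p 0.0266). That call was lost without either 4SU with 365 nm library or without untreated library B (log2 -1.40 to -0.39, adjusted p up to 0.393), and its value was -0.48 (adjusted p 0.267) with the length trend removed and turned to 0.18 with length and GC trends removed. In DESeq2 it had -0.73 there (adjusted p 0.163).

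Ultraviolet light at 254 nm acts on the natural bases, and 4SU absorbs at 365 nm, so the uridine content of each transcript was set beside these values. Among the 9 genes with a GENCODE v29 transcript within 20% of the deposited length, CMPK1 had the highest uridine content (33.0%) and the lowest GC content (37.8%), and UCKL1 had the lowest uridine content (18.0%) and the highest GC content (59.8%). The windows of 30 coding bases richest in thymidine are printed for the genes at both ends of that range and for CTPS1, the gene lower with 4SU alone, from GENCODE v29 (GRCh38), read 5′ to 3′ with each T, a uridine in the mRNA, in capitals.
CMPK1: gaTgTaTcTTTcgTTcTcTTTTTTgacTgT
UCKL1: cTgggTggTcTTgcTgTccaTggacTccTT
CTPS1: TTcTcTccTTaTgagcaTggTgaggTTTTT
These windows hold 17 uridines in CMPK1, 11 in UCKL1 and 14 in CTPS1. The range above is of whole transcripts. In the coding part alone CMPK1 had 24.6% uridine, below CTPS2 (26.5%) and SLC29A1 (26.2%) and near CTPS1 (24.4%), and UCKL1 had 17.3%. The part of uridine content in the changes was not tested, and the genes at both ends of its range are also those at both ends of GC content.

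CAD encodes the large enzyme with carbamoyl phosphate synthetase, aspartate transcarbamylase and dihydroorotase activities that opens de novo synthesis. It had 64.7 and 74.0 CPM after 4SU with 365 nm, 121 and 162 CPM with 4SU alone, 162 and 183 CPM after 254 nm, and 222 and 174 CPM in untreated cells. The 4SU with 365 nm libraries were the lowest of the 8, and the 254 nm and untreated libraries overlapped. CAD was lower by the whole procedure than in untreated cells (log2 -1.51, standard error 0.35, adjusted p 0.000286, called without any 1 library), and lower after 365 nm than with 4SU alone (-1.03, 0.34, adjusted p 0.0102). The call for 365 nm over 4SU alone was lost without either 4SU with 365 nm library or without 4SU-only library B (log2 -1.21 to -0.81, adjusted p up to 0.116). With 7108 nt, CAD is the longest transcript of the 10, and at that length the trend over all features was -1.26 for 365 nm over 4SU alone and -1.39 for the whole procedure. A fit corrected for length gave CAD 0.13 (adjusted p 0.741) for 365 nm over 4SU alone and -0.25 (adjusted p 0.513) for the whole procedure, and 1.16 after 254 nm (adjusted p 0.00339), against -0.20 (adjusted p 0.625) with TMM scaling alone.

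DHODH encodes the dihydroorotate dehydrogenase of the inner mitochondrial membrane, and UMPS encodes UMP synthase, which makes UMP from orotate. DHODH was low throughout, with 4.46 and 9.07 CPM after 4SU with 365 nm (4 and 13 tags), 11.9 and 11.2 CPM with 4SU alone, 29.4 and 23.8 CPM after 254 nm, and 12.1 and 8.73 CPM in untreated cells. UMPS had 14.5 and 15.4 CPM after 4SU with 365 nm (13 and 22 tags), 31.4 and 28.8 CPM with 4SU alone, 83.6 and 78.1 CPM after 254 nm, and 43.4 and 47.1 CPM in untreated cells. The 4 groups of UMPS did not overlap, with 254 nm highest, then untreated, then 4SU alone, then 4SU with 365 nm. Some tags of DHODH in 3 libraries, both with 4SU alone and the HuR siRNA one, were shared with other transcripts. The same held for UMPS in the 2 siRNA libraries, and the values of these libraries are slightly uncertain.

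After 254 nm, DHODH rose by 1.34 on the log2 scale over untreated cells (standard error 0.40, adjusted p 0.00444, called without any 1 library). UMPS rose by 0.84 (0.32, adjusted p 0.0257). Both calls were lost when library totals replaced TMM scaling, with 0.50 for DHODH (adjusted p 0.349) and -0.013 for UMPS. The UMPS call was also lost without either 254 nm library (log2 0.78 to 0.89, adjusted p up to 0.0966). Corrected for length, the values were 0.95 for DHODH and 0.88 for UMPS, both past the test, and with length and GC trends removed DHODH had 0.78 (adjusted p 0.0632). With 4SU and 365 nm, UMPS fell by 1.59 relative to untreated cells (log2 -1.59, standard error 0.38, adjusted p 0.00047, called without any 1 library) and was lower than with 4SU alone (log2 -1.0, 0.38, adjusted p 0.0232). The second UMPS call held in 3 of 8 fits, those without 254 nm library B or either untreated library (log2 -1.07 to -0.93, adjusted p up to 0.122), and DESeq2 gave -0.75 (adjusted p 0.118) and the length-corrected fit -0.63 (adjusted p 0.138). DHODH had -0.55 (adjusted p 0.342) and -0.69 (adjusted p 0.222) in the same comparisons. For 4SU alone over untreated cells, CAD had -0.48 (adjusted p 0.402), UMPS -0.59 (adjusted p 0.285) and DHODH 0.14 (adjusted p 0.878).

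CTPS1 and CTPS2 encode the CTP synthases, which aminate UTP to CTP. CTPS1 had 39.1 and 44.0 CPM after 4SU with 365 nm, 66.7 and 78.5 CPM with 4SU alone, 154 and 183 CPM after 254 nm, and 142 and 192 CPM in untreated cells. The 4 libraries with 4SU were below the 4 without it, and those crosslinked at 365 nm were the lowest. CTPS1 fell with 4SU alone by 1.20 on the log2 scale (standard error 0.33, adjusted p 0.0168). That value was -1.20 with the length trend removed (adjusted p 0.00683), -1.19 with length and GC trends removed (adjusted p 0.000468), -1.22 in DESeq2 (adjusted p 0.0112) and -1.15 with library totals (adjusted p 0.0664). The call was lost without either 4SU-only library or without untreated library B (log2 -1.41 to -0.99 over the 8 fits, adjusted p up to 0.249).

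CTPS1 fell further after 365 nm relative to 4SU alone (log2 -0.80, standard error 0.35, adjusted p 0.0453). This call held in 2 of 8 fits, those without either untreated library, with log2 values of -0.91 to -0.68 and adjusted p up to 0.205, and the value was -0.55 (adjusted p 0.192) in DESeq2 and -0.21 (adjusted p 0.600) with the length trend removed. Over the whole procedure CTPS1 had the lowest fold change of the 10 genes (log2 -2.0, standard error 0.35, adjusted p 7.36e-06), called without any 1 library and with the length trend removed (-1.40, adjusted p 0.000440). After 254 nm it had 0.01 over untreated cells (standard error 0.32, adjusted p 0.974).

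CTPS2 had 20.1 and 16.8 CPM after 4SU with 365 nm (18 and 24 tags), 6.50 and 7.31 CPM with 4SU alone (23 and 39 tags), 12.6 and 12.6 CPM after 254 nm, and 10.7 and 20.4 CPM in untreated cells. Both 365 nm libraries were above both 4SU-only libraries, and the untreated libraries were above the 4SU-only ones and overlapped those at 365 nm. CTPS2 rose after 365 nm relative to 4SU alone by 1.39 (standard error 0.46, adjusted p 0.00883), a value that turned to -0.53 (adjusted p 0.324) when library totals replaced TMM scaling. The call was lost without library A of either group (log2 1.28 to 1.53, adjusted p up to 0.0566), and the value was 2.25 with the length trend removed (adjusted p 6.17e-05). With 4SU alone CTPS2 had -1.15 (standard error 0.41, adjusted p 0.0810), after the whole procedure 0.24 (adjusted p 0.641) and after 254 nm -0.28 (adjusted p 0.585).

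The ratio of CTPS1 to CTPS2 tags within a library needs no scaling between libraries. It was 1.94 and 2.63 after 4SU with 365 nm, 10.3 and 10.7 with 4SU alone, 12.2 and 14.5 after 254 nm, 13.3 and 9.40 in untreated cells, 8.93 with HuR siRNA and 5.06 with GFP siRNA. The 4SU with 365 nm libraries were the lowest of the 10. With groups of 2, an exact two-sided permutation test cannot go below a p of 0.333, so this ratio is given without a test. The tags of CAD, DHODH and UMPS over those of UCK1, UCK2 and UCKL1 came to 0.664 and 0.621 after 4SU with 365 nm, 1.18 and 1.76 with 4SU alone, 1.25 and 1.22 after 254 nm, 2.55 and 2.23 in untreated cells, 1.85 with HuR siRNA and 1.64 with GFP siRNA. The untreated libraries were the highest for this ratio and the 4SU with 365 nm libraries the lowest. CAD, the longest transcript, gives most of the first sum. Neither ratio is corrected for length. At 254 nm the trend over all features was -1.51 on the log2 scale at the length of CAD and 1.19 at that of UCK2. DHODH and UMPS alone over the 3 kinases came to 0.150 and 0.154 after 4SU with 365 nm, 0.309 and 0.349 with 4SU alone, 0.512 and 0.435 after 254 nm, and 0.510 and 0.542 in untreated cells.

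**Figure D2:**
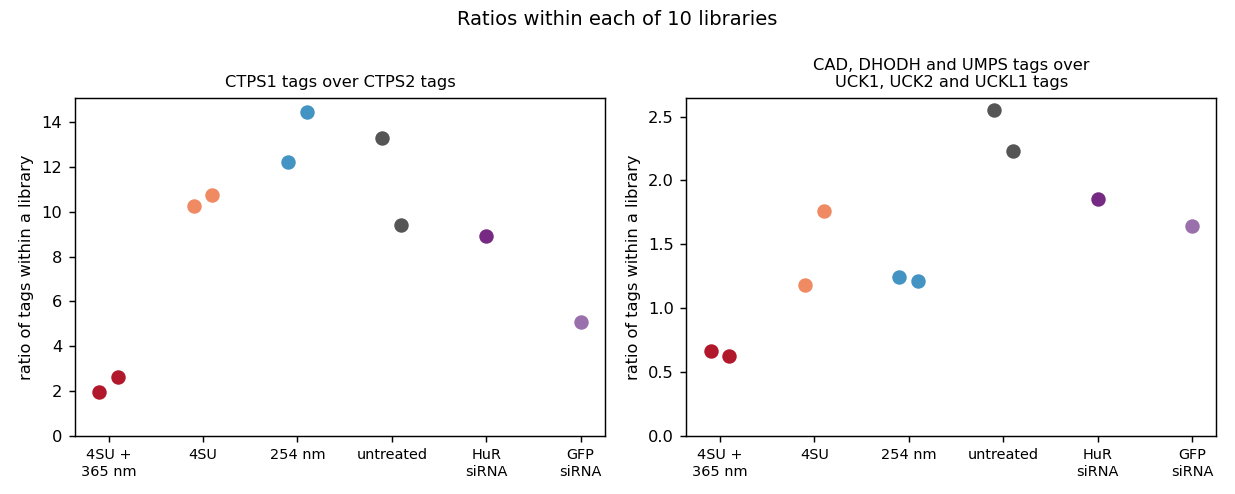
Ratios of tags within each of the 10 libraries, for CTPS1 over CTPS2 and for CAD, DHODH and UMPS over UCK1, UCK2 and UCKL1 (points: libraries). After 4SU with 365 nm the first ratio is 1.94 and 2.63 and the second 0.664 and 0.621, the lowest values in both panels. The ratios are not corrected for transcript length.

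CTPS1, UMPS and CAD, the 3 genes with the lowest fold change after the whole procedure before any length correction, are shown with their RefSeq promoters (GRCh38.p14, 250 bases before to 50 after the gene's start, plus strand, 5′ to 3′). Capitals mark matches on either strand to GGGCGG, the GC box letters bound by SP-family factors, to CCAAT, and to TGACGTCA, the cAMP response element letters. They lie at chr1:40979446-40979745 for CTPS1, whose table start is 361 bases from the start of the GENCODE transcript matched to the deposited one, chr2:27217119-27217418 for CAD and chr3:124730202-124730501 for UMPS.
CTPS1: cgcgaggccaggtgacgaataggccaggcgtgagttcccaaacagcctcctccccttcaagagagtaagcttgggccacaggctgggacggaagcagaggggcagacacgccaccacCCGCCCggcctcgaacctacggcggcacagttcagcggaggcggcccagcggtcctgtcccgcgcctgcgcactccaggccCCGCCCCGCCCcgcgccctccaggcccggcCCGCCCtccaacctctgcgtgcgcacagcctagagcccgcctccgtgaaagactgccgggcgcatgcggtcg
CAD: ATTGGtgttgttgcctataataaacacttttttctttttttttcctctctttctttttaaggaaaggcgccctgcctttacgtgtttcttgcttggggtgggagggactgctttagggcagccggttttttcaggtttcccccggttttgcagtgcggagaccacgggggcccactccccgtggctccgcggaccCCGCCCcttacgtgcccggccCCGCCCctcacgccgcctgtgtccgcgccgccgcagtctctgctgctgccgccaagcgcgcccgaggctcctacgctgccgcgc
UMPS: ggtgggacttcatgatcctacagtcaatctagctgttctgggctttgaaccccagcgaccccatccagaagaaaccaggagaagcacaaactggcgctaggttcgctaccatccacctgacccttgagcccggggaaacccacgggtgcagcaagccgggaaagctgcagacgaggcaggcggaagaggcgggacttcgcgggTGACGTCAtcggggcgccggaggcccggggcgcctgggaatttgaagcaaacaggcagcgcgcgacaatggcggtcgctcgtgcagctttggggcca
CTPS1 holds 4 GGGCGG matches, 2 of which share 1 base, CAD holds 2 GGGCGG and 1 CCAAT, and UMPS holds 1 TGACGTCA, 47 to 40 bases before the start. Over all 35116 promoters of the table, 45.0% hold GGGCGG, 34.6% CCAAT, 7.26% the E-box CACGTG, 1.85% TGACGTCA and 3.62% TGATGNAA, the letters of an ATF4-type element. Of the 10 genes, 8 hold GGGCGG, 3 CCAAT, 2 CACGTG, 1 TGACGTCA and 0 TGATGNAA in this window. The motifs were chosen after the sequences were seen, and a match is a description of letters only.

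Set side by side, 4SU alone was the comparison with the fewest calls among these genes. 1 of the 10 was called, CTPS1, which was lower, against 7.56% of all tested features called in either direction, 3.87% higher and 3.69% lower. The median log2 fold change over untreated cells was -0.38 for the 10 genes and 0.02 for all features. The 2 libraries of each group did not overlap for 5 genes that were lower (UCKL1, CTPS1, CTPS2, CAD and UMPS) and for 1 that was higher (UCK1), against 24.3% and 24.7% of all features.

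For 365 nm in 4SU cells over 4SU alone, CAD, UMPS and CTPS1 fell and CTPS2 rose. These 4 of 10 stand against 59.8% of all features called, 33.7% lower and 26.2% higher, so that the 10 genes were not called more often than the rest. Both libraries of each group were apart for 5 genes that were lower (SLC29A1, CTPS1, CAD, DHODH and UMPS) and 2 that were higher (UCKL1 and CTPS2), against 50.7% and 33.1% of all features. Their median was -0.44, against -0.50 over all features. Among all tested features CAD was at percentile 38.6, UMPS at 39.1, CTPS1 at 43.9 and CTPS2 at 79.1. With library totals in place of TMM scaling the median of all features moved to -2.39 and 9 of the 10 genes were called lower, against 72.4% of all features. The length-corrected fit called only CTPS2 of the 10, which was higher, against 26.1% of all features higher and 21.0% lower.

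For 254 nm over untreated cells, UCK1, UCK2, UCKL1, DHODH and UMPS rose and CMPK1 and SLC29A1 fell. These 5 of 10 higher and 2 of 10 lower stand against 25.2% and 28% of all features, and 53.2% in either direction. The groups did not overlap for the same 5 and 2 genes, against 35.7% of all features higher and 41.3% lower. The median was 0.43 for the 10 genes and -0.14 for all features. Tested features of up to 2753 nt had a median of 0.81 in this comparison and longer ones -0.98, and the 5 genes that rose were 1284 to 2658 nt long. With the length trend removed, UCK1, DHODH, UMPS and CAD were called higher and CMPK1 and SLC29A1 lower, against 19.0% and 16.9% of all features. With library totals 0 of the 10 were called higher in edgeR, 0 of them at an unadjusted p under 0.05 either, and CMPK1, SLC29A1, CAD and CTPS2 were called lower, against 10.1% and 47.0% of all features. The medians were then -0.43 for the 10 genes and -0.99 for all features.

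For the whole procedure, 4SU with 365 nm over untreated cells, CTPS1, UMPS, CAD, CMPK1 and SLC29A1 fell and 0 of the 10 rose at this threshold in edgeR, where UCK1 alone was higher at an unadjusted p under 0.05, and DESeq2 called that 1 gene higher. These 5 of 10 lower stand against 32.5% of all features lower, 26.3% higher and 58.8% in either direction. The groups did not overlap for these 5 genes, against 45.6% of all features, nor for UCK1 and UCK2, which were higher in both libraries, against 33.4%. The median was -0.71 for the 10 genes and -0.40 for all features. Corrected for length, CTPS1 and UMPS were called lower, and UCK1 (0.76, adjusted p 0.0466) and CTPS2 (1.19, adjusted p 0.0142) higher. Of all features 21.2% were called lower and 25.6% higher in that fit, so the 10 genes were not called more often than the rest. With library totals all 10 were called lower, against 70.4% of all features, whose median was -2.25. This comparison shares its untreated libraries with those of 4SU alone and 254 nm, and its 4SU with 365 nm libraries with the 365 nm comparison, so the lists are not independent.

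**Figure D3:**
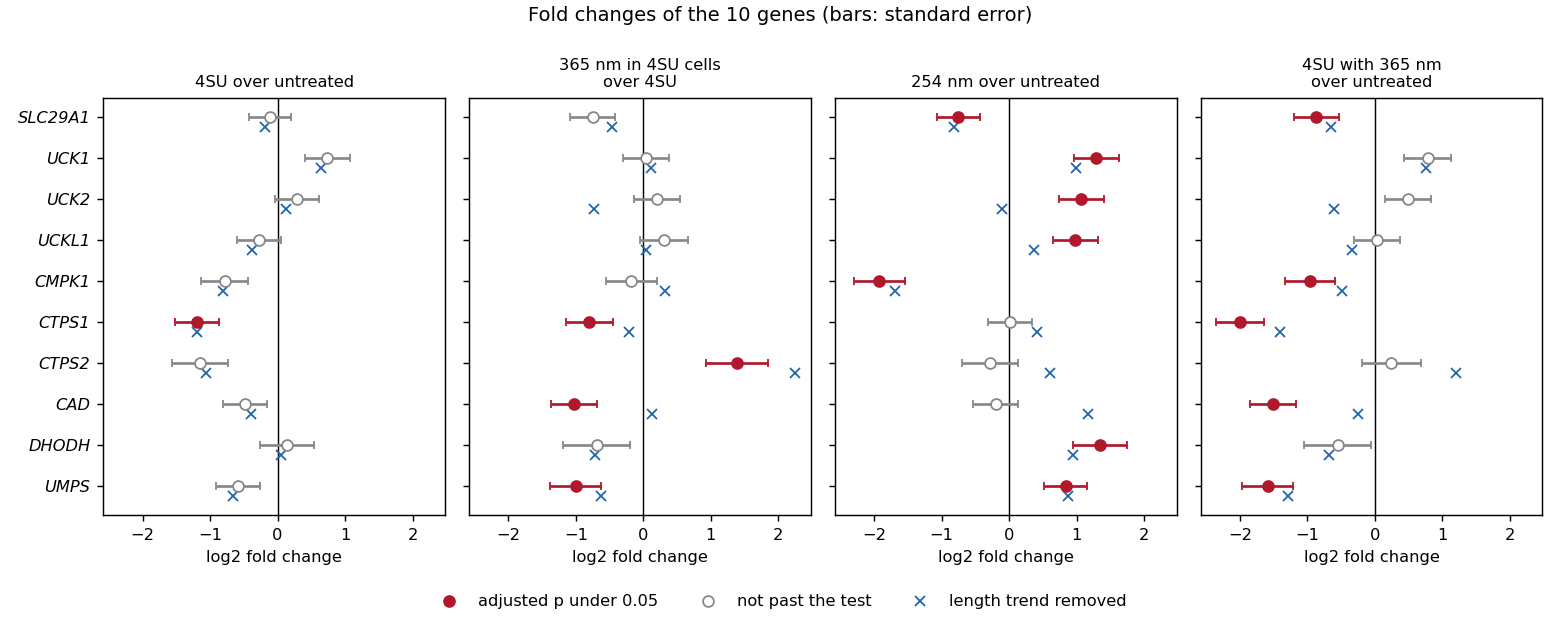
Log2 fold changes of the 10 genes in 4 comparisons (points; bars: standard error; filled: adjusted p under 0.05) and the values with the length trend removed (crosses). CTPS1 is at -1.20 with 4SU alone with or without the length correction, while CAD in the 365 nm comparison is at -1.03 without it and 0.13 with it.

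The 2 crosslinking procedures were also compared with each other, as the 365 nm change in 4SU cells minus the 254 nm change in cells without 4SU. CMPK1 was past this test upward (1.74, standard error 0.54, adjusted p 0.0196), with -0.18 at 365 nm and -1.92 at 254 nm. UMPS (-1.84, 0.50, adjusted p 0.00811) and DHODH (-2.03, 0.63, adjusted p 0.0206) were past it downward, with -1.0 and -0.69 at 365 nm and 0.84 and 1.34 at 254 nm. These 3 of 10 stand against 17.1% of all features, 9.99% upward and 7.06% downward. In the length-corrected fit CMPK1 (2.01), UMPS (-1.51) and DHODH (-1.67) kept their calls and CTPS2 joined them (1.65, adjusted p 0.0352). Of all features 13.1% were called upward and 6.41% downward in that fit. With library totals the CMPK1 call ended (0.70, adjusted p 0.376), and 7 of the 10, UMPS and DHODH among them, were called downward, against 32.3% of all features. The CMPK1 call held in 3 of 8 fits that leave out a library, and was lost without either 4SU with 365 nm library, 4SU-only library B, 254 nm library B or untreated library B (log2 1.16 to 2.17, adjusted p up to 0.111). The DHODH call was lost without library A of the 4SU with 365 nm, 4SU-only or 254 nm group (log2 -2.71 to -1.67, adjusted p up to 0.128) and in DESeq2 (-1.85, adjusted p 0.0533), and the UMPS call without either 4SU with 365 nm library (log2 -1.90 to -1.77, adjusted p up to 0.0609).

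**Figure D4:**
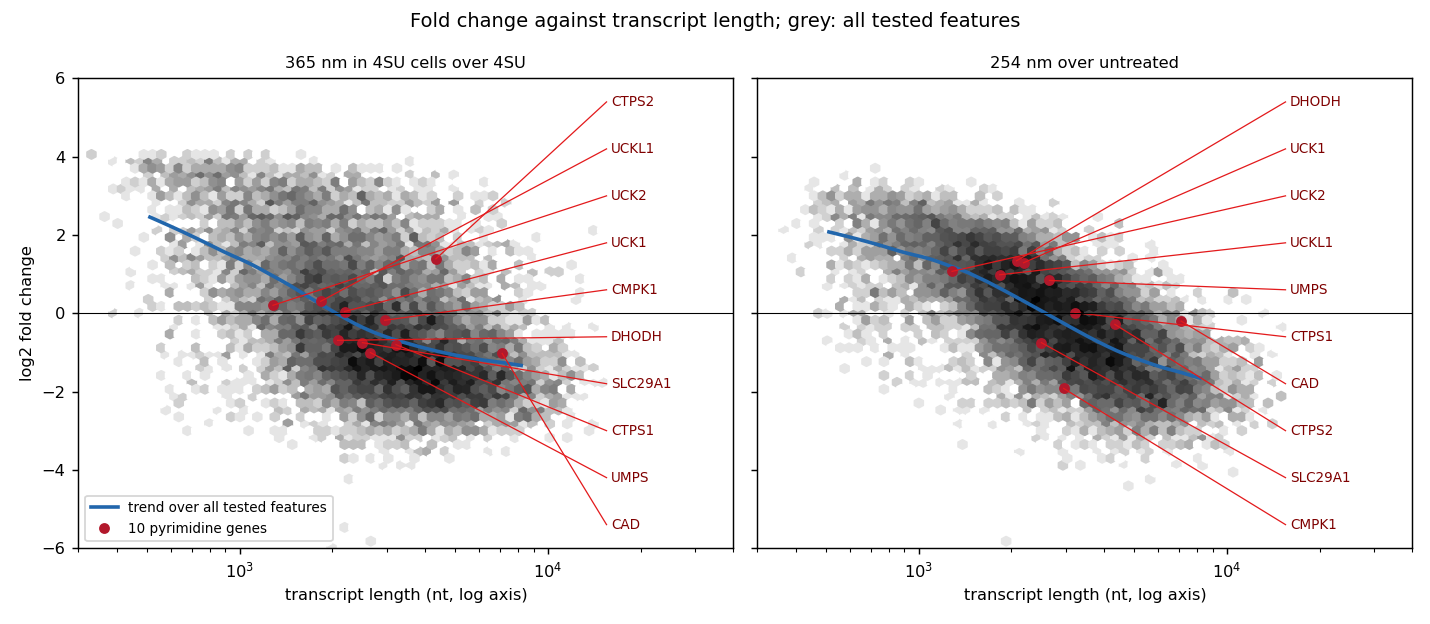
Log2 fold change against transcript length in nt (log axis) for 365 nm in 4SU cells over 4SU alone (left) and 254 nm over untreated cells (right), with all tested features in grey, their trend in blue and the 10 genes in red. At 365 nm CTPS2 (1.39) lies above the trend, and at 254 nm CMPK1 (-1.92) lies below it and CAD (-0.20) above it.

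Within untreated cells the levels per kilobase ran from CTPS1, at 51.9 ± 10.9 CPM per kilobase, to CTPS2, at 3.58 ± 1.58 (SD, n = 2 each). Between them lay SLC29A1 (32.3 ± 2.4), UCK2 (31.8 ± 5.7), CAD (27.8 ± 4.7), CMPK1 (21.1 ± 10.1), UCKL1 (20.5 ± 3.4), UMPS (17.0 ± 1.0), UCK1 (12.5 ± 2.3) and DHODH (5.0 ± 1.1), in the same unit. The ranges of neighbours overlapped from SLC29A1 down to UCKL1 and between DHODH and CTPS2, while CTPS1, UCKL1, UMPS and UCK1 were separate from the next lower gene. After 4SU with 365 nm, CTPS1 stood at rank 5 in this order, at 12.9 ± 1.1 CPM per kilobase. Over the 8 libraries the features most like UCK2 in log2 CPM, of those above the median level, were GEMIN6 (Pearson r 0.987), LTAP1 (0.980) and the GenBank transcript BC009385 (0.970). Those most like CTPS1 were CDC6 (0.991), ACTR8 (0.991) and HSPA8 (0.988). These 8 points share 4 conditions and their differences in length bias, so the values describe likeness only.

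The siRNA pair compares 1 library with 1 library, so nothing was tested and the intervals cover counting error only. ELAVL1, the targeted gene, had 638 tags with HuR siRNA and 1905 with GFP siRNA (log2 ratio -1.53). With TMM scaling CTPS2 lay farthest from 0 of the 10 genes, with 184 tags after HuR siRNA and 341 after GFP siRNA, a log2 ratio of -0.83 (95% interval -1.11 to -0.58). SLC29A1 was higher, with 1262 and 926 tags and a ratio of 0.49 (0.37 to 0.62). CMPK1 was lower, with 1085 and 1425 tags and a ratio of -0.34 (-0.46 to -0.23). None of the 10 passed a log2 ratio of 1 in either direction, against 4.52% of 17798 features above 1 and 6.24% below -1.

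The other ratios for HuR siRNA over GFP siRNA were 0.35 for CAD, 0.34 for UCK1 and 0.31 for DHODH, with intervals above 0, and 0.06 for UMPS, 0.05 for UCKL1, 0.02 for UCK2 and -0.02 for CTPS1, with intervals that include 0. All 10 ratios lay between the 5th and 95th percentiles of all features, -1.08 and 0.97. Removing the length trend gave CAD 0.69, then the farthest from 0, CTPS2 -0.64 and UCK2 -0.20. With 1 library each, the siRNA and any difference between the cultures or libraries cannot be told apart.

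**Figure D5:**
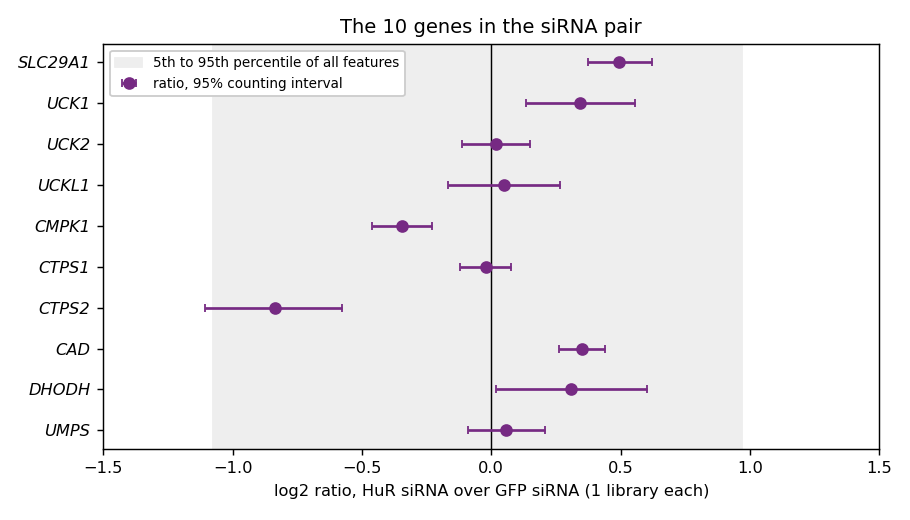
Log2 ratio of each gene, HuR siRNA over GFP siRNA (points; bars: 95% exact counting interval), with the 5th to 95th percentile of all features shaded. CTPS2 is lowest at -0.83 and SLC29A1 highest at 0.49, both inside the shaded range.

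A further 39 genes of pyrimidine metabolism were looked at as a list of transporters, nucleotide kinases, ribonucleotide reductase, thymidylate and dUTP enzymes, breakdown enzymes and nucleotidases. Of these 34 were matched in the files and 26 were tested. With 4SU alone 1 of the 26 was called, against 3.87% of all features higher and 3.69% lower. It was SAMHD1, a dNTP hydrolase, at 14.7 and 15.5 CPM against 38.2 and 48.2 CPM in untreated cells (log2 -1.51, adjusted p 0.0057). For 365 nm over 4SU alone 15 of 26 rose and 4 fell, against 26.2% and 33.7% of all features, from NME2 (3.75), a nucleoside diphosphate kinase, to RRM2B (-2.16), a ribonucleotide reductase subunit. For 254 nm over untreated cells 13 rose and 5 fell, against 25.2% and 28%, from NME3 (2.91) to RRM2B (-2.70). For the whole procedure 15 rose and 5 fell, against 26.3% and 32.5%, from NME2 (4.25) to RRM2B (-3.07). NME1 and NME2 are related in sequence, and whether tags were split between them was not looked at, so the NME2 values are uncertain.

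The median log2 fold change of these 26 genes was 0.08 with 4SU alone, 1.59 for 365 nm, 0.78 for 254 nm and 1.43 for the whole procedure, against -0.38, -0.44, 0.43 and -0.71 for the 10 genes and 0.02, -0.50, -0.14 and -0.40 for all features. The 26 were shorter, with a median length of 2094 nt. With the length trend removed their median was 1.16 for 365 nm and 0.59 for 254 nm, against -0.22 and -0.0035 for all features. At 365 nm 15 of the 26 were then called higher and 2 lower, against 26.1% and 21.0% of all features, and at 254 nm 8 and 4, against 19.0% and 16.9%. With library totals the median of the 26 was below 0 in the 3 comparisons with crosslinking, and 4 rose and 11 fell at 365 nm, 8 rose and 9 fell at 254 nm and 7 rose and 12 fell over the whole procedure. All features then had 7.52%, 10.1% and 7.65% higher and 72.4%, 47.0% and 70.4% lower in the same comparisons. SLC29A2, the other plasma membrane equilibrative transporter, had 6.70 and 13.3 CPM after 4SU with 365 nm, 13 and 14.6 CPM with 4SU alone, 21.7 and 18.0 CPM after 254 nm, and 16.4 and 9.0 CPM in untreated cells. It was called in no comparison with TMM scaling, with or without the length trend removed. With library totals it was called lower for 365 nm over 4SU alone (-2.29, adjusted p 1.62e-05) and for the whole procedure (-2.14, adjusted p 5.88e-05). The difference of the 2 crosslinking changes was then also called downward (-2.06, adjusted p 0.0117). SLC29A3, an equilibrative transporter known from lysosomal membranes, had 4.46 and 4.89 CPM after 4SU with 365 nm, 9.90 and 6.18 CPM with 4SU alone, 19.9 and 11.2 CPM after 254 nm, and 8.51 and 5.29 CPM in untreated cells. It rose after 254 nm (log2 1.15, adjusted p 0.0291), a call lost with the length trend removed (0.95, adjusted p 0.0712) and with library totals (0.33, adjusted p 0.585). The concentrative transporters SLC28A1 and SLC28A2 reached at most 0.485 and 0.283 CPM, where a count of 3 tags amounts to 0.562 to 3.35 CPM, so that neither was above that floor in its library.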

How the data were processed

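Polyadenylated RNA of HEK293 cells was measured in 10 libraries. Per the file headers, the deposited tables give, for every transcript above 0, an expected count (a tag that matches several transcripts is split among them), a length, and an expression signal that the authors made from count, length and total. The deposited expected counts are unnormalized and sum to the header's total of tags. For aligner, build and annotation: not given in the sources used here. Only counts and lengths were used.

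Accessions were named from RefSeq (15886 of 25005 transcripts) and GENCODE v29 (134 more), and the 8985 others entered the fit by accession. Expected counts were rounded. The 8 libraries of 4 groups were fitted together in edgeR 4.0.16 (R 4.3.3) with TMM factors, filterByExpr and the quasi-likelihood test, two-sided, with Benjamini-Hochberg adjustment over 13731 features in each of 5 contrasts. A gene was called at an adjusted p under 0.05. The standard error is an approximation from the F statistic, the absolute log2 value over the root of F. The fit had 4 residual degrees of freedom and a common coefficient of variation of 0.244, and the floor of 3 tags equals 0.562 to 3.35 TMM-scaled CPM, for counting error only. siRNA ratios used a prior count of 2 and exact 95% intervals. Length trends were loess fits (span 0.5) per library, and GC values were available for 9 of the 10 genes. Tables and figures used Python 3.11.15.

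All 10 genes are named in every comparison. The other pathway genes are given as counts, with values for those called with 4SU alone and the highest and lowest in the other comparisons. The other nucleoside transporters found in the files are named in addition. The values of a further gene of this list are not reported here. The members and lists were chosen with earlier results of these data known. Alternatives were DESeq2 1.42.0, other scaling, filters, thresholds and fits, a replicate block, and leaving out each library, where a lone library is assumed to vary like the other groups.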

Additional observations from a re-analysis of the deposited data

Results flagged for a closer look

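The difference between the 365 nm change in 4SU cells and the 254 nm change in cells without 4SU was past edgeR's test for CMPK1 (1.74 on the log2 scale), DHODH (-2.03) and UMPS (-1.84). Both 254 nm libraries lay below both untreated ones for CMPK1, and DHODH rests on 4 and 13 tags in the 4SU with 365 nm libraries.

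Of the 26 other pyrimidine genes tested, 3 were past the same test upward and 1 downward, against 9.99% and 7.06% of all features. RRM1, the large ribonucleotide reductase subunit, differed by 2.44. SAMHD1 differed by 2.44 and CANT1, a calcium-dependent nucleotidase, by -1.59. RRM1 had 217 and 441 CPM after 4SU with 365 nm, 82.6 and 99.7 CPM with 4SU alone, 129 and 116 CPM after 254 nm, and 139 and 230 CPM in untreated cells. With the length trend removed RRM1 had 2.64, SAMHD1 2.77 and CANT1 -1.44, all past the test. With library totals RRM1 had 1.43 (adjusted p 0.0342), SAMHD1 1.40 (adjusted p 0.0732) and CANT1 -2.66 (adjusted p 0.000181).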

How the results depend on the processing

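Of 985 values of single genes under the alternatives, 836 kept their direction and their side of the threshold or were past it under neither setting, 33 of which changed sign. A further 94 lost and 35 gained a call, and 20 reversed. When library totals replaced TMM factors, the 365 nm values over 4SU alone were -1.83 for UCK1, -1.69 for UCK2, -1.59 for UCKL1 and -0.53 for CTPS2. UMPS then had -0.013 for 254 nm, and the whole procedure gave -1.06 for UCK1, -1.36 for UCK2, -1.84 for UCKL1 and -1.63 for CTPS2. That setting called 0, 9, 4, 10 and 7 genes for 4SU alone, 365 nm, 254 nm, the whole procedure and the difference of the 2 crosslinking changes, all of them lower. In the same order, 1.74%, 72.4%, 47.0%, 70.4% and 32.3% of all features were called lower. With TMM factors 1, 4, 7, 5 and 3 were called, of which 0, 1, 5, 0 and 1 were higher. With the length trend removed, CAD had 0.13 for 365 nm and 1.16 for 254 nm and UCK2 -0.10 for 254 nm, and 1 gene was called for 365 nm. With length and GC trends removed, a setting chosen after seeing the data, UCK2 had -1.25 for 365 nm. For 254 nm, UCK2 then had -0.71, UCKL1 -0.41, CTPS2 1.01 and CAD 0.74, and for the whole procedure UCK2 had -1.23, UCKL1 -1.09 and CMPK1 0.18. UMPS could not be fitted there.

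An adjusted p of 0.01 left 0, 1, 4, 3 and 1 genes in the same order. For 365 nm, DESeq2 called 2 and RLE factors 1, and the compared groups alone called 3 for the whole procedure. Leaving out 1 library gave 0 to 3 genes for 4SU alone, 0 to 5 for 365 nm, 4 to 6 for 254 nm, 3 to 6 for the whole procedure and 0 to 5 for the difference, with the counts of 0 without either 4SU-only library or untreated library B for 4SU alone and without 4SU with 365 nm library A for 365 nm and the difference. The replicate block called 2 genes for 4SU alone (CTPS2 as well, adjusted p 0.0361) and 5 for the difference, and 5, 7 and 6 for 365 nm, 254 nm and the whole procedure. The letters A and B are not stated to mark a shared batch. Same-letter deviations correlated at -0.08 to 0.35 between groups, and with 2 letters the pairing cannot be decided. No siRNA ratio passed 1 under any setting run.

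The libraries hold few tags of these genes: the lowest counts were 4 for DHODH, 13 for UMPS and 18 for CTPS2, all after 4SU with 365 nm, which limits what can be called there. Crosslinked libraries carry shorter transcripts, and this moves with the crosslinking comparisons of all 10 genes. Its part was looked at only through the length corrections.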
